A study of Mus musculus with 4 samples.

Results

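Imprinted genes are read from 1 parental allele, and the 42 described here were named from a list of genes imprinted in the mouse. Of these, 20 are known to be expressed from the paternal allele and 21 from the maternal allele, while Gnas makes transcripts from either allele depending on the promoter. They were measured by Affymetrix array in immortalised mouse embryonic fibroblasts, cultured cells derived from whole embryos, in a study of which genes depend on PA1. All 4 samples carried a PA1 allele flanked by loxP sites on both chromosomes. The PA1 -/- cells had received a retrovirus expressing Cre recombinase, which removes DNA between loxP sites, and the PA1 +/+ cells the vector alone. All cells were then selected with 2 µg/ml puromycin for 3 days, a selection that was then repeated. The cells of all 4 samples were grown with 10% serum. Each genotype has 2 arrays, numbered 1 and 2 in the labels. Cre itself was present only on the PA1 -/- side, so an effect of Cre and of the lost gene cannot be told apart. Nothing in the labels says how the cells were immortalised, or that the numbers stand for separate cultures, so the spread between arrays may be technical in part.

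PA1 is encoded by Pagr1a and belongs to the histone H3 lysine 4 methyltransferase complexes built on KMT2C and KMT2D. Imprints are set in the germ line as DNA methylation at a control region, which is kept through development and decides which parental copy of each gene in a cluster is read. In the embryo and its fibroblasts, several paternally expressed genes promote growth and several maternally expressed genes restrain it. Array signals add both alleles and cannot show which allele a transcript came from.

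Of the 42 genes, 40 had at least 1 probe set of their own, 104 probe sets in all. Zrsr1 had none in the annotation used here, and H19 shared its probe set with Mir675 and was not read. Probe sets in the upper 50% by mean signal were tested, with the boundary near a signal of 62.8. This left 27 of the 42 genes (11 paternal, 15 maternal and Gnas) with 61 tested probe sets, and each gene was read through its brightest. The other 13 genes with a probe set gave signals between 0.590 and 283 and are described without a test. They are Ascl2, Asb4, Magel2, Mkrn3, Nap1l5, Nnat, Peg10, Phlda2, Rasgrf1, Slc22a18, Snrpn, Usp29 and Zim1. Snrpn was read through 1 probe set only, with signals from 4.60 to 26.4, because its others also carry the symbol Snurf and were not read. Differences are log2(signal + 9.98) in PA1 -/- minus PA1 +/+ cells, where the added 9.98 is the 20th percentile of all signals. Pagr1a, which checks the labels, gave signals of 1340.3 and 1389 on the PA1 +/+ arrays 1 and 2 and 108 and 113 on the PA1 -/- arrays 1 and 2. The labels do not say which exons of Pagr1a the deletion removes, or whether this probe set lies in them.

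The arrays stood apart more by number than by genotype. Their log2 signals correlated at 0.971 and 0.977 where the number was shared and the genotype was not, but only at 0.918 and 0.920 where the genotype was shared. Genotype was therefore also compared within each number. The cells carried fibroblast transcripts: 11 of 12 markers passed the filter, with a summed signal from 97699 to 119051 on the PA1 +/+ arrays and from 91727 to 103055 on the PA1 -/- arrays. These markers were lower in PA1 -/- cells for the most part: their median difference was -0.40, with 10 of the 11 below 0, and Pdgfra was at -2.07. Of 6 markers each, 0 of the pluripotent and germ cell list, 1 endothelial, 2 epithelial, 2 blood, 2 muscle and 3 neural markers passed the filter. The neural marker Nes read from 1089 to 1586, Map2 up to 793 and the muscle marker Acta1 up to 768, levels that several tested imprinted genes shared. The summed neural signal was 3022 and 2187 in PA1 +/+ and 2223 and 1464 in PA1 -/- cells at numbers 1 and 2, and the summed muscle signal was 313 and 893 in PA1 +/+ and 373 and 941 in PA1 -/- cells. The part of these markers in the results was not tested, and in bulk RNA fewer cells of a type and less RNA per cell cannot be told apart.

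The windows before the start sites of Peg3, Dlk1 and Meg3 are shown first, since these are the 3 genes with an unadjusted p under 0.05 in the comparison of genotypes. Each window runs from 250 bases before to 50 bases after an annotated start (RefSeq, GRCm38.p6). Capitals mark TGACGTCA, a cyclic AMP response element, and TGCCGC, the letters that the imprint keeper ZFP57 is known to bind when methylated, searched on both strands.
Peg3 (chr7:6730370-6730669, minus strand): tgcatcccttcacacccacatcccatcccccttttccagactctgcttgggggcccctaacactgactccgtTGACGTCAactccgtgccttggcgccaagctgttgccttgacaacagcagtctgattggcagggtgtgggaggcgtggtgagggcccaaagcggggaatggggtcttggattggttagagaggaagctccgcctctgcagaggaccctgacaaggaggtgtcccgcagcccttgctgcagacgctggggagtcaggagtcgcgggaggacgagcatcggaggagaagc
Dlk1 (chr12:109452573-109452872, plus strand): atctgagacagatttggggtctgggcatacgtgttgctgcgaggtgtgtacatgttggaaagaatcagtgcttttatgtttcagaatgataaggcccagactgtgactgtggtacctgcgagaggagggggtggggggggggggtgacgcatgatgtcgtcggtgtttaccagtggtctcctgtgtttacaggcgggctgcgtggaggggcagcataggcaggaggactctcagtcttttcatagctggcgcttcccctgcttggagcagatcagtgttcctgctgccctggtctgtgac
Meg3 (chr12:109540746-109541045, plus strand): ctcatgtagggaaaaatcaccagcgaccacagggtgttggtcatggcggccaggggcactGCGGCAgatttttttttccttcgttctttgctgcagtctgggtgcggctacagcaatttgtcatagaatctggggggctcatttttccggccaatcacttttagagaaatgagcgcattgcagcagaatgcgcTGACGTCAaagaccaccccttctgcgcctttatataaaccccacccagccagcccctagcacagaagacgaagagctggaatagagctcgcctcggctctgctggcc
TGACGTCA stood in the windows of Peg3 and Meg3 shown, and TGCCGC, as its reverse complement, in that of Meg3, while Dlk1 held neither. Meg3 has a second annotated window (chr12:109545148-109545447), with 1 CpG site against 13 in the one shown, which held neither. The Usp29 window overlaps that of Peg3 by 263 bases on the opposite strand and so holds the same TGACGTCA. Windows were found for 36 of the 42 genes, 54 windows in all. TGACGTCA was in 3 of the 54 (5.6%), against 1.79% of 32851 windows over all genes, and was searched after the sequences had been read. The site shared by Peg3 and Usp29 is counted in both of their windows. TGCCGC was in 13 of the 54 (24.1%), against 11.61%. These windows belong to 12 genes, since overlapping windows of Mest are counted apart. The YY1 letters GCCATNTT were in 2 of the 54 (3.7%), those of Mkrn3 and Ube3a, against 6.05%. The windows of these genes held a median of 15 CpG sites, against 7 over all genes. TGCCGC and TGACGTCA each hold a CpG site, and the part of this in their shares was not tested. A match in such a window is a description of its letters only.

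Most of the tested imprinted genes were lower in PA1 -/- cells, but by small amounts, and few differed by 2-fold. Lower at both numbers were 15 of the 27, against 29.3% of the 10714 genes tested, and 7 were higher at both, against 33.9%. Without the filter the share was smaller: 15 of 40 genes were lower at both (37.5%), against 27.4% of 18193 genes. The median difference was -0.11 over the 27, with 17 below 0, and 0.02 over all genes tested. Paternally expressed genes had a median of -0.23, with 7 of 11 lower (63.6%) and 3 higher at both numbers, or 7 of 19 lower (36.8%) without the filter. Maternally expressed genes had a median of -0.11, with 7 of 15 lower (46.7%) and 4 higher at both, or 7 of 20 lower (35%) without it. Some genes of these groups are known to be imprinted in some tissues or transcripts only. Whether each is read from 1 allele in these fibroblasts was not measured. The fibroblast markers moved in the same direction, with 7 of 11 lower at both numbers (63.6%), as did the neural ones, with 2 of 3, and their part in these counts was not tested. With genotype as the only term, 0 of the 61 probe sets passed limma's test (every adjusted p was 0.9998 over 22519 probe sets), against 0% of all probe sets and genes. At an unadjusted p under 0.05, 9 of the 61 probe sets were lower and 0 higher, against 1.95% of all probe sets in either direction. These probe sets belong to Peg3, Meg3, Dlk1 and Grb10 only, and those of 1 gene are repeated readings of it, not separate observations. Of genes at an unadjusted p under 0.05, 3 of the 27 genes were lower, against 1.34% of all genes, and 0 were higher, against 0.812%. These 3 were Peg3, Dlk1 and Meg3. The SEs of this fit, given below, include the difference between numbers. With the replicate number as a further term, 11 of the 61 probe sets passed, against 1.98% of all probe sets. Of the 27 genes, 5 passed and were lower (Peg3, Dlk1, Meg3, Cd81 and Cdkn1c), against 1.82% of all genes. That fit leaves fewer residual degrees of freedom, and the labels do not say what the numbers stand for. The medians over the imprinted genes changed, some in sign, when single arrays were left out. Such fits, here and below, leave the replicate numbers unequal between the genotypes. A difference between numbers then enters the difference between genotypes, and the 2 cannot be told apart. Without the PA1 -/- array numbered 1, the median was 0.081 over all 27, 0.14 for paternal and -0.01 for maternal genes. Without the PA1 +/+ array numbered 2 these medians were 0.081, 0.19 and 0.081. The paternal median was -0.05 without the PA1 -/- array numbered 2 (maternal -0.19), and the maternal one -0.23 without the PA1 +/+ array numbered 1, where that over all 27 was -0.17.

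**Figure D1:**
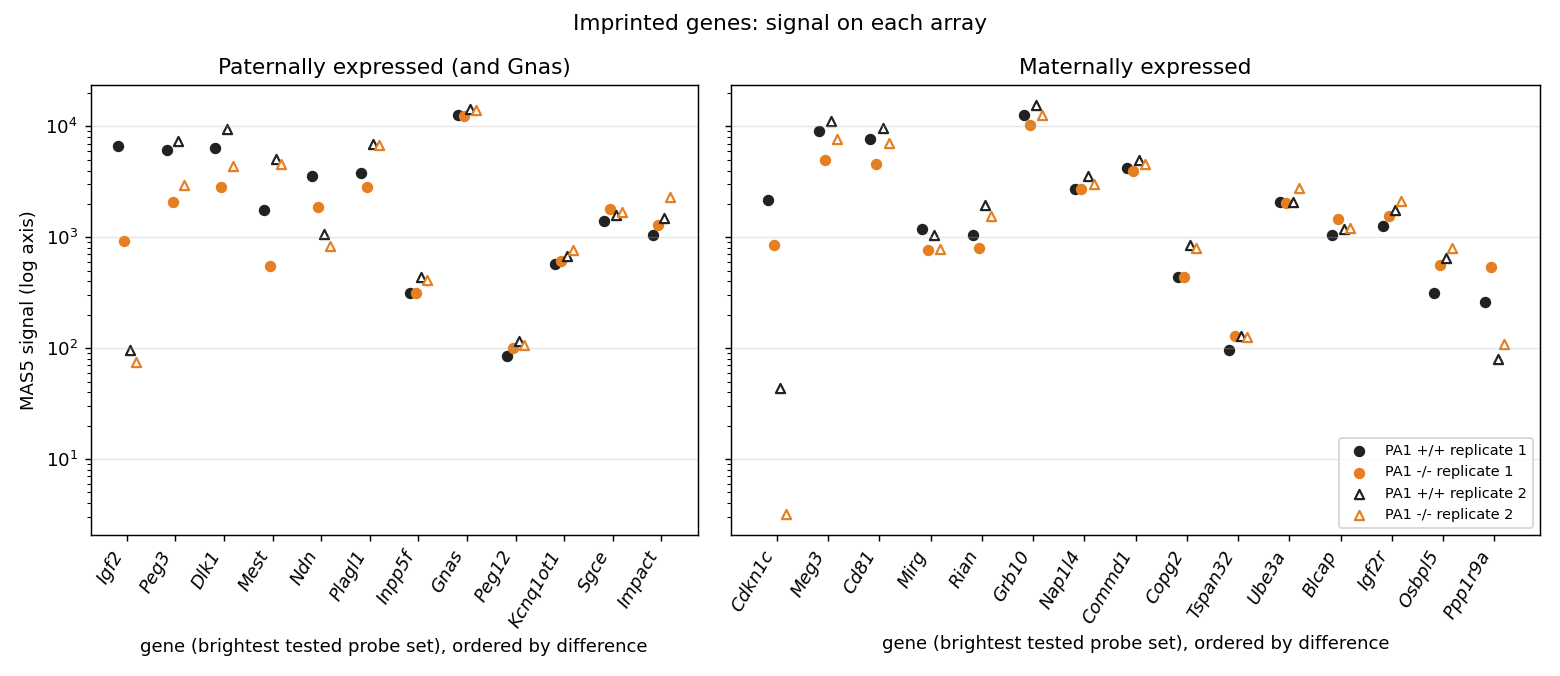
MAS5 signal (log axis) of each tested imprinted gene on the 4 arrays, with circles for arrays numbered 1, triangles for arrays numbered 2, dark for PA1 +/+ and orange for PA1 -/-. Peg3 and Dlk1 are lower on both PA1 -/- arrays than on either PA1 +/+ array, whereas Igf2 and Cdkn1c are bright on the arrays numbered 1 only.

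At number 1, 5 of the 27 genes were at least 2-fold lower in PA1 -/- cells, against 2.47% of all genes, and at number 2 this held for 3, against 2.13%. At least 2-fold lower at both numbers were 3 of the 27 genes, Peg3, Dlk1 and Cdkn1c, against 0.831% of all genes, and 0 were 2-fold higher at both, against 0.187%. Both signals of Cdkn1c at number 2 lay under the filter. The groups did not overlap, with PA1 -/- lower, for 6 of the 27 (Peg3, Dlk1, Meg3, Mirg, Cd81 and Grb10), against 11.3% of all genes. They did not overlap, with PA1 -/- higher, for Sgce and Blcap, against 15%.

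**Figure D2:**
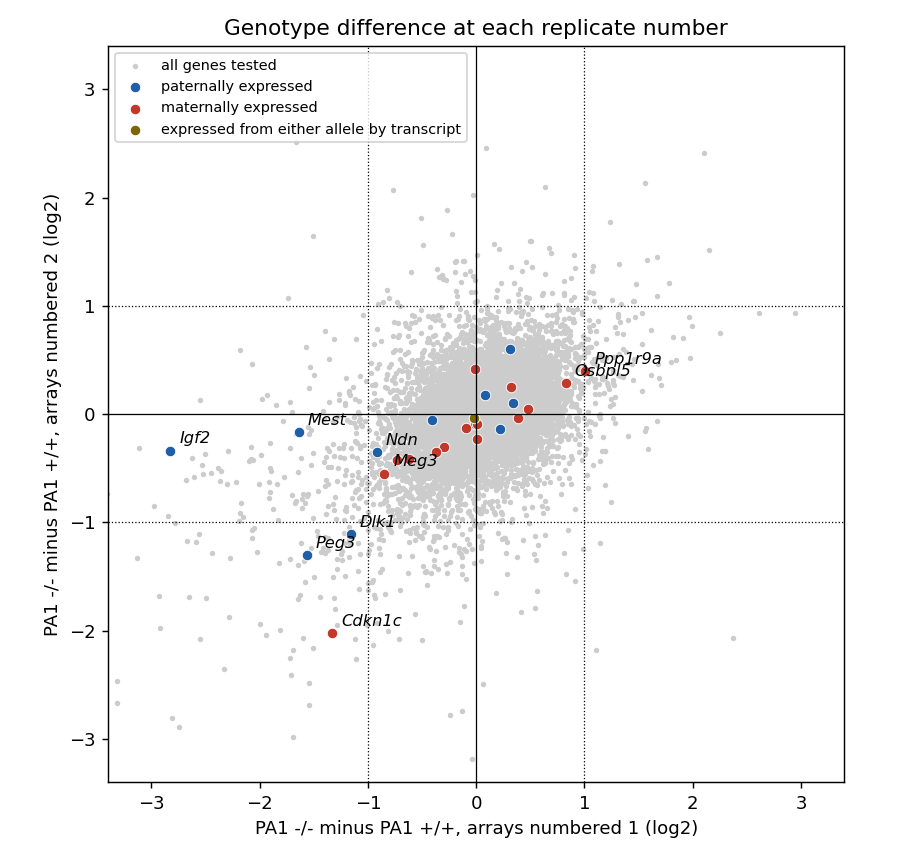
Log2 difference between PA1 -/- and PA1 +/+ cells on the arrays numbered 1 (horizontal) and 2 (vertical), with imprinted genes in colour over all genes tested in grey; 10 genes lie outside the axes, and dotted lines mark a 2-fold difference. Peg3, Dlk1 and Cdkn1c lie below both lower lines, and Igf2 and Mest lie far to the left with little difference at number 2.

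Among paternally expressed genes, Peg3 had the largest difference that was alike at both numbers. It encodes a zinc finger protein known to regulate growth and maternal behaviour. Its brightest probe set gave signals of 6175 and 7383 on the PA1 +/+ arrays 1 and 2 and 2077 and 2986 on the PA1 -/- arrays 1 and 2. Both PA1 -/- values lay below both PA1 +/+ values, at 6779 ± 854 against 2532 ± 643 (mean ± SD, n = 2 arrays each). The difference was -1.44 (SE 0.26), or 2.7-fold lower, with -1.57 at number 1 and -1.30 at number 2. The other tested probe sets differed more, by -1.99 (1597 and 3033 against 372 and 803) and -1.79 (909 and 1307 against 225 and 423). A further 2 probe sets of Peg3 stayed at or under a signal of 3.34. Its neighbours were dim. Usp29, which encodes a ubiquitin protease and starts beside Peg3 on the other strand, gave at most 46.3, and the maternally expressed zinc finger gene Zim1 at most 59.0, so neither could be compared.

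The listed genes of the Dlk1-Meg3 cluster of chromosome 12 were lower in PA1 -/- cells on both parental sides. The paternal side here is Dlk1 alone, with 1 tested probe set. All 4 listed genes were lower at both numbers, against 29.3% of all genes tested. So were 16 of their 18 tested probe sets, against 29.7% of all probe sets tested. Of the 18, 11 read Meg3 alone, so the probe sets are not separate observations. Dlk1, paternally expressed, encodes a membrane protein that inhibits adipocyte differentiation. It gave signals of 6338 and 9536 on the PA1 +/+ arrays 1 and 2 and 2829.9 and 4421 on the PA1 -/- arrays 1 and 2, so that the groups did not overlap. The difference was -1.13 (SE 0.33), -1.16 at number 1 and -1.11 at number 2. A dim, untested probe set of Dlk1 read 42.4 and 28.4 against 32.8 and 10.7.

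The maternally expressed side of the cluster makes the long noncoding RNAs Meg3, Rian and Mirg. Meg3 gave signals of 9046 and 11209 on the PA1 +/+ arrays 1 and 2 and 5023 and 7658 on the PA1 -/- arrays 1 and 2 by its brightest probe set, without overlap. The difference was -0.70 (SE 0.26), -0.85 at number 1 and -0.55 at number 2. Its 11 tested probe sets differed by -0.02 to -1.12, and 9 were lower at both. The exceptions were 2 of the dim ones, at 0.25 and 0.13 at number 2. Rian, known to host small nucleolar RNAs, read 1045 and 1971 against 805 and 1546 and differed by -0.36 (SE 0.48). All 4 tested probe sets of Rian were lower at both numbers, between -0.86 and -0.18, but the groups overlapped, since both arrays numbered 2 were the higher of their genotype. Mirg, a microRNA host, read 1182 and 1054 against 764 and 788, without overlap, and differed by -0.52 (SE 0.24), with its second probe set at -0.44. Within the annotated spans of Meg3, Rian and Mirg the RefSeq table lists 1, 3 and 10 microRNA hairpins on the same strand, which these arrays did not measure. Without the PA1 -/- array numbered 1 the difference of Rian was 0.11, and without the PA1 +/+ array numbered 2 it was 0.09. These fits mix number with genotype, and within numbers Rian was at -0.37 (number 1) and -0.35 (number 2). Meg3 and Cd81 were at -0.39 and -0.27 without the PA1 -/- array numbered 1.

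**Figure D3:**
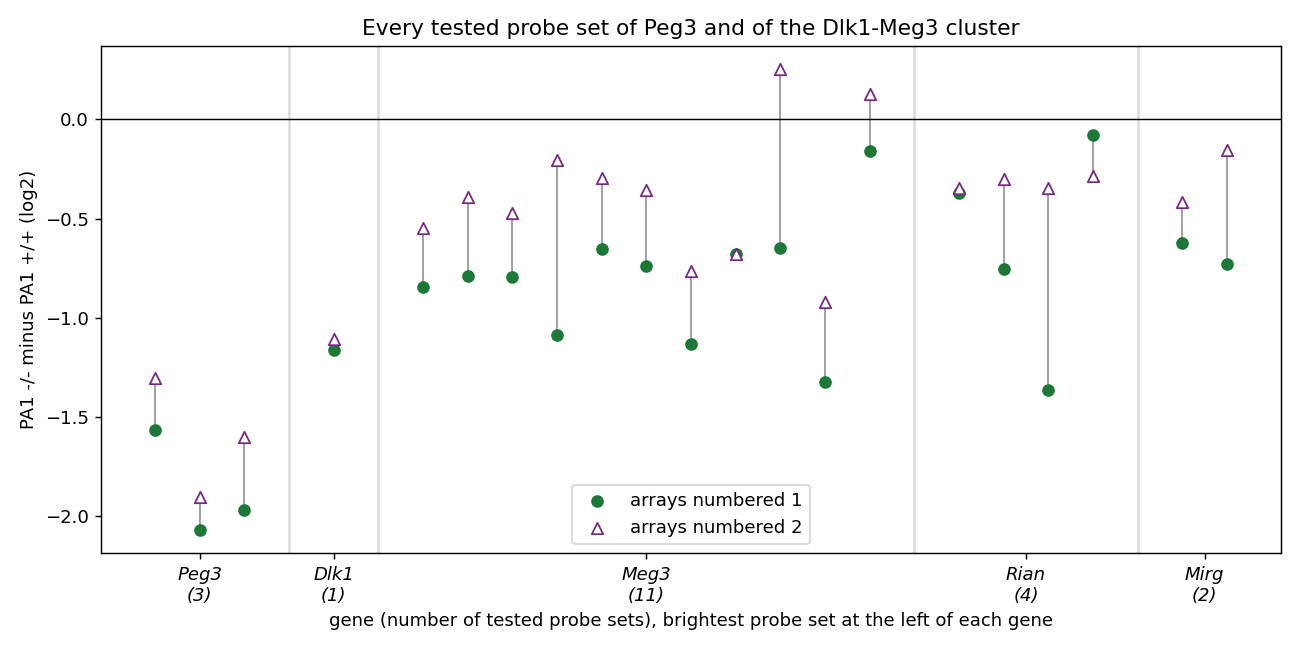
Log2 difference between PA1 -/- and PA1 +/+ cells for every tested probe set of Peg3, Dlk1, Meg3, Rian and Mirg, with circles for the arrays numbered 1 and triangles for those numbered 2, joined for each probe set. All points lie below 0 apart from 2 triangles of dim Meg3 probe sets.

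Igf2 and Cdkn1c, which oppose each other in growth, were bright only on the arrays numbered 1. Igf2, paternally expressed, encodes insulin-like growth factor 2, a fetal growth factor. It gave signals of 6679.7 and 96.9 on the PA1 +/+ arrays 1 and 2 and 935 and 74.6 on the PA1 -/- arrays 1 and 2. At number 1 it differed by -2.82 and at number 2 by -0.34, giving -1.58 with an SE of 2.25. Its other probe set, which was dim, read 39.5 and 7.42 against 3.36 and 2.78. Cdkn1c, maternally expressed, encodes the cyclin-dependent kinase inhibitor p57. It gave signals of 2160.1 and 43.4 on the PA1 +/+ arrays 1 and 2 and 854 and 3.16 on the PA1 -/- arrays 1 and 2. Its difference was -1.68 (SE 2.63), -1.33 at number 1 and -2.02 at number 2. With the larger pseudocount of 65.2, the median signal, the difference of Cdkn1c at number 2 was -0.67, since both its signals there lay below that value. Without the PA1 -/- array numbered 2 the overall differences of Igf2 and Cdkn1c were 0.16 and 1.34, and without the PA1 +/+ array numbered 1 they were 1.40 and 0.997. Without the PA1 -/- array numbered 1 or the PA1 +/+ array numbered 2, they ranged from -3.32 to -4.69. Fits without 1 array mix the difference between numbers with that between genotypes.

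For Igf2 the arrays of 1 genotype differed more between numbers than the genotypes did within a number. It was 62.6-fold lower at number 2 than at number 1 in PA1 +/+ cells and 11.2-fold lower in PA1 -/- cells, on the log2(signal + 9.98) scale. Cdkn1c is given without a fold between numbers, since both its signals at number 2 lay under the filter. At least 2-fold lower at number 2 in both genotypes were 4 of the 27 (Igf2, Cdkn1c, Ndn and Ppp1r9a), against 4.52%; Cdkn1c passed the filter only through the arrays numbered 1, where it was high. In addition, 1, Mest, was at least 2-fold higher in both, against 3.77%. Lower at number 2, like Igf2, were also 2 genes under the filter that lie next to genes described here. Nnat, paternally expressed and active in neural and fat cells, read 283 and 4.29 against 187 and 4.93. Phlda2, a maternally expressed growth restrainer beside Cdkn1c, read 67.1 and 6.39 against 215 and 5.73. The comparison of numbers was chosen after the values had been seen.

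**Figure D4:**
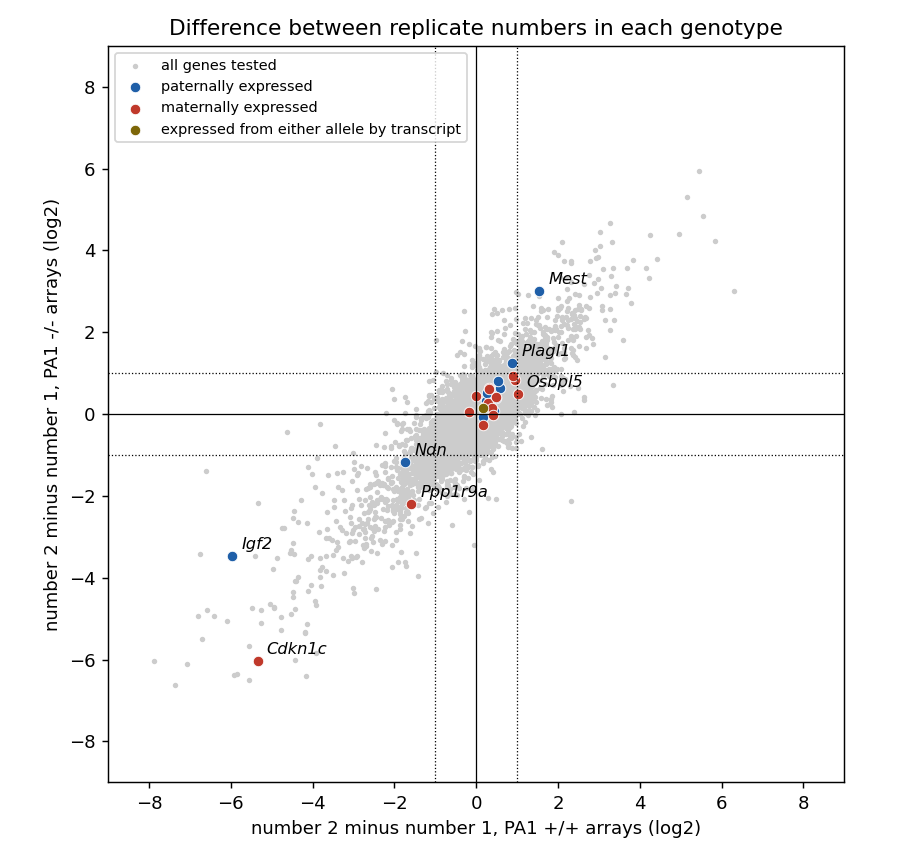
Log2 difference between the arrays numbered 2 and 1 in PA1 +/+ (horizontal) and PA1 -/- cells (vertical), with imprinted genes in colour over all genes tested in grey and dotted lines at a 2-fold difference. Igf2 and Cdkn1c lie at the far lower left, Ndn and Ppp1r9a nearer the centre on the same side, and Mest on the opposite side.

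The other paternally expressed genes differed between numbers or hardly at all. Mest, which encodes a hydrolase-like protein linked to fat cell size, read 1755 and 5113 on the PA1 +/+ arrays 1 and 2 and 556 and 4546 on the PA1 -/- arrays 1 and 2. It differed by -1.64 at number 1 and -0.17 at number 2 (-0.90, SE 1.11), and by 0.60 without the PA1 -/- array numbered 1 and -0.14 without the PA1 +/+ array numbered 2. Ndn, which encodes the MAGE family protein necdin, read 3564 and 1067 against 1882 and 833 and differed by -0.64 (SE 0.71). Its difference was -0.92 at number 1 and -0.35 at number 2, and all 5 tested probe sets were lower at both, 1 of them at number 2 by almost nothing (596 against 595). Without the PA1 +/+ array numbered 1 it was 0.23, and without the PA1 -/- array numbered 2 it was -0.05. Plagl1, a zinc finger transcription factor known to act on other imprinted genes, read 3801 and 7008 against 2859.6 and 6761 and differed by -0.23 (SE 0.52). Its signal was higher on both arrays numbered 2, and its difference was 0.39 without the PA1 -/- array numbered 1 and 0.21 without the PA1 +/+ array numbered 2.

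Of the 11 tested paternally expressed genes, 4 had a difference above 0, namely Impact, Sgce, Kcnq1ot1 and Peg12. Impact, a regulator of translation, read 1041 and 1508 against 1298 and 2299 and differed by 0.46 (SE 0.38). This was 0.05 without the PA1 -/- array numbered 2 and 0.87 without that numbered 1, and its other tested probe sets gave -0.15 and -0.17. Sgce, which encodes epsilon-sarcoglycan, read 1404 and 1583 against 1782 and 1701 (0.22, SE 0.22), without overlap, but its dimmer probe set gave -0.39 and the mean of both -0.08. Peg10, a retrotransposon-derived gene next to Sgce, was dim and read 39.6 and 39.7 against 82.6 and 93.3, a difference of 0.90 at number 1 and 1.06 at number 2, which was not tested. The noncoding RNA Kcnq1ot1, which silences its neighbours on the paternal chromosome, read 577 and 679 against 609 and 766 (0.13, SE 0.27). Inpp5f, an inositol phosphatase gene, read 314 and 440.0 against 313 and 412 (-0.05) and Peg12 84.3 and 117 against 100.04 and 106 (0.04). Gnas, which encodes the stimulatory G protein subunit, read 12715 and 14319 against 12534 and 13961 and differed by -0.03 (SE 0.15), at 0.07 after quantile normalization.

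Maternally expressed genes outside the Dlk1-Meg3 cluster split in direction. In the Kcnq1ot1 cluster of chromosome 7, 2 of the 6 tested genes, Cdkn1c and Cd81, were lower at both numbers, a share near the 29.3% of all genes, and Osbpl5 and Kcnq1ot1 itself were higher at both. Cd81, a tetraspanin imprinted mainly in placenta, gave signals of 7699 and 9615 on the PA1 +/+ arrays 1 and 2 and 4628 and 7153 on the PA1 -/- arrays 1 and 2, without overlap, and differed by -0.58 (SE 0.27). Osbpl5, an oxysterol-binding protein gene, read 315 and 647 against 566 and 794 and differed by 0.56 (SE 0.44), by 0.05 without the PA1 +/+ array numbered 1 and by 1.06 without that numbered 2. Nap1l4, a histone chaperone gene, read 2721 and 3566 against 2736 and 3029.6 (-0.11), and Tspan32 95.9 and 129.7 against 128 and 127 (0.18). Slc22a18 and Ascl2, of the same cluster, were below the filter on every probe set.

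The receptor-side restrainers of growth differed by 0.30 or less in size by their brightest probe sets. Grb10, an adaptor that dampens insulin and IGF1 receptor signalling, read 12740.1 and 15479 on the PA1 +/+ arrays 1 and 2 and 10393 and 12568 on the PA1 -/- arrays 1 and 2. The groups did not overlap, and the difference was -0.30 (SE 0.18). A second probe set of Grb10 (571 and 436 against 287 and 238) differed by -0.91 (SE 0.29), and the remaining one (121 and 181 against 179 and 197) by 0.32, so its probe sets disagreed in sign. Igf2r, the receptor that clears IGF2, read 1259.6 and 1779 against 1572 and 2112 and differed by 0.28 (SE 0.30), higher at both numbers. Without the PA1 +/+ array numbered 1 this was 0.034, and without that numbered 2 it was 0.53.

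Ppp1r9a, which encodes the actin-binding protein neurabin, had the largest positive difference of the 27. It read 261 and 80.3 on the PA1 +/+ arrays 1 and 2 and 536 and 109 on the PA1 -/- arrays 1 and 2, differing by 0.70 (SE 0.92), and a second tested probe set by 0.60. The spread between numbers exceeded it, and without the PA1 -/- array numbered 1 the difference was -0.40. Ube3a, the ubiquitin ligase imprinted in neurons, read 2064 and 2067 against 2047 and 2763 (0.20, SE 0.24), and the mean of its probe sets gave -0.07. Blcap read 1050.3 and 1176 against 1464 and 1219 (0.26, SE 0.24), without overlap. Commd1 read 4217 and 4966 against 3962 and 4543 (-0.11) and Copg2, beside Mest, 439 and 854 against 442 and 799 (-0.04). These last genes are known to be imprinted in some tissues or transcripts only.

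Genes around the imprinting system had medians near 0. Of 40 further imprinted genes, 18 were tested, of which 6 were lower (33.3%, against 29.3% of all genes) and 6 higher (against 33.9%) at both numbers, with a median of 0.01. The largest differences there were of Dcn, which encodes the proteoglycan decorin (138 and 103 against 41.4 and 37.9, -1.38, SE 0.33), and Cobl, an actin nucleator gene (25.8 and 345 against 38.0 and 879.8, 0.87, SE 1.76). Of 27 factors that set or keep imprints, 22 were tested, 6 lower (27.3%) and 5 higher at both numbers, with a median of -0.01. Arid4a, a chromatin factor gene, was at 0.40 (SE 0.39) and Mbd3 of the NuRD complex at -0.34 (SE 0.21). Of 17 genes of the IGF2 axis, 14 were tested, 2 lower (14.3%) and 4 higher at both, with a median of 0.06. Grb14, an adaptor related to Grb10, was at -1.20 (SE 0.91; 777 and 2173 against 248 and 1258) and the kinase gene Akt1 at 0.54 (SE 0.24). In these 3 lists 0 genes passed limma's test (adjusted p = 0.9998 for each), and 1, Dcn, was at an unadjusted p under 0.05. Both PA1 -/- signals of Dcn lay under the filter boundary of 62.8. It was tested only through the PA1 +/+ arrays, where it was high.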

How the data were processed

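Total RNA of 4 fibroblast samples was hybridised to 4 Affymetrix arrays. The authors deposited linear intensity values, for which the submitters' processing notes name MAS5 with no version or scaling target. With 2% of probe sets trimmed at either end, each array's mean was 500, so a change shared by most genes would not show. Control probe sets (64 of 45101) were left out. Of the remaining 45037, 34945 had 1 gene symbol in the platform annotation, 932 several and 9160 none, and only the first were named.

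Log2(signal + 9.98) was fitted across all tested probe sets (limma 3.58.1, R 4.3.3, lmFit and eBayes with an intensity trend; 2-sided) with genotype as the only term, 2 residual degrees of freedom, and Benjamini-Hochberg adjustment over the 22519 probe sets tested, threshold 0.05. The number of arrays limits the precision, and for 2 arrays a group the smallest exact permutation p is 0.333. The script was tested on simulated data. All members that passed the filter are given with values, and those below it by their range or beside a neighbour; of each further list the 2 largest differences are given. The members and lists were chosen with earlier results of these data known. Alternatives were quantile and median normalization, other pseudocounts, filters and variance models, averaging the probe sets of a gene, the replicate number as a term, and leaving out each array. Sequences and names come from RefSeq, GRCm38.p6, and no build is named for the arrays. Figures used matplotlib 3.10.9 in Python 3.11.15.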

Additional observations from a re-analysis of the deposited data

How the results depend on the processing

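Under quantile and median normalization, a pseudocount of 1, averaged probe sets and the replicate block, the median difference was between -0.06 and -0.11 for all 27 genes and for the 15 maternal genes, and between -0.18 and -0.23 for the 11 paternal genes. No filter (40 genes) gave -0.11, -0.08 (20 maternal) and -0.23 (19 paternal), and a pseudocount of 65.2 (29 genes) gave -0.11, -0.11 (15 maternal) and -0.23 (13 paternal). Keeping the upper 30% of probe sets gave a paternal median of -0.43 over 10 genes. Leaving out 1 array gave ranges of -0.17 to 0.081 for all 27 genes, -0.17 to 0.19 for paternal and -0.23 to 0.081 for maternal genes, and such fits hold unequal numbers in the 2 genotypes. The counts at both numbers, added after seeing the data, were, for genes lower at both, 13 of 27 with median normalization (against 23.7% of all genes), 16 of 27 with averaged probe sets (28.6%), 15 of 40 without the filter (27.4%) and 14 of 23 with the upper 30% (28.7%). Genes at least 2-fold lower at both numbered 2 with the pseudocount at the median signal and with the upper 30%, where Cdkn1c was not past 2-fold or not tested, and 3 under the other settings. Of single genes, Gnas was at 0.02 and Copg2 at 0.01 after median normalization, Gnas at 0.07 after quantile normalization, and Sgce at -0.08 and Ube3a at -0.07 with averaged probe sets. The sign changed for 5, 7, 8 and 4 of the 27 genes without PA1 +/+ 1, PA1 -/- 1, PA1 +/+ 2 and PA1 -/- 2, respectively.

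The count of probe sets past the threshold was 0 under every setting but the replicate block, and with genotype as the only term 440 were at an unadjusted p under 0.05. With the replicate number as a block (replicate block), 447 of 22519 probe sets passed, among them 11 of the 61 of imprinted genes, and 5 of the 27 genes: Peg3 (adjusted p = 0.000496), Dlk1 (0.00127), Cdkn1c (0.00506), Meg3 (0.0137) and Cd81 (0.0398), all lower in PA1 -/- cells, against 1.82% of all genes lower with that fit. Of the 3 further lists, Dcn (0.0308) and Grb14 (0.0173) passed with it, but Dcn passed the filter only through the PA1 +/+ arrays. Deviations from the genotype means of same-numbered arrays correlated at 0.805, so the difference between numbers was largely shared by the genotypes. With 2 pairs and no label that ties the numbers to a shared culture or day, what the numbers stand for is not known. Signals near the background, as of Cdkn1c at number 2, limit what can be read there.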
